A study of Mus musculus with 16 samples.

Results

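The 9 genes described here are delayed effectors of neuronal activity together with the receptor of brain-derived neurotrophic factor (BDNF): Bdnf, Ntrk2, Scg2, Vgf, Pcsk1, Nptx2, Homer1, Inhba and Ptgs2. They were chosen by gene name from a raw count table of 49315 gene identifiers, each name matched 1 row, and 9 of 9 were among the 17469 genes with enough reads to be tested. RNA from the hippocampus of 16 mice was sequenced, with 4 animals in each of 4 groups: wild type on a standard diet, Kcna1 knockout on a standard diet, wild type on a ketogenic diet and Kcna1 knockout on a ketogenic diet. Kcna1 codes for a subunit of Kv1 potassium channels that limit axonal firing, and its loss gives mice spontaneous seizures. A ketogenic diet supplies mostly fat and little carbohydrate, so that ketone bodies become a main fuel. The knockout allele, strain, age, sex and time on the diet are not given in the sources used here. Libraries are named below by the tags in the table's header (KC913RR, for example) and are taken as separate animals from those tags, so that p-values measure the spread between them.

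Firing of a neuron first induces transcription factors and then, with a delay, a second wave of genes whose products act at synapses and on neighbouring cells. BDNF is the best known product of that wave: it is packed into dense core vesicles, released by activity and bound by the receptor tyrosine kinase TrkB, which Ntrk2 encodes. In the hippocampus this wave is known to follow seizures and is prominent in dentate granule cells. Secretogranin II (Scg2) and VGF are vesicle cargo that is cut into peptides, and Pcsk1 encodes a prohormone convertase that does such cutting. Neuronal pentraxin 2 (Nptx2) gathers AMPA-type glutamate receptors at synapses, Homer1 encodes postsynaptic scaffold proteins and a short activity-induced form that displaces them, Inhba encodes the activin A subunit, and Ptgs2 encodes the inducible cyclooxygenase (COX-2) that makes prostaglandin precursors.

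Many activity-induced genes carry a cyclic AMP response element, TGACGTCA, or its shorter core TGACG near their start, the sequence bound by the transcription factor CREB. Promoter windows of 300 bases (250 before and 50 after a RefSeq start, build GRCm38.p6) matched 7 of the 9 genes and gave 14 windows. TGACGTCA, which reads the same on both strands and contains TGACG on each, was found in 2 of the 14 windows, against 1.79% of all 32851 windows. TGACG, searched on both strands, was found in 5 of the 14, against 20.8% of all windows. In Ptgs2 the TGACG match lay after the start, and it is not printed. The stretches below are from the 4 genes with a match before the start (Bdnf, Scg2, Homer1 and Pcsk1), and were chosen for that match. They are printed 5′ to 3′ along the gene's strand, with the matches in capitals, and in the Bdnf stretch the match lies on the opposite strand and so reads CGTCA.
Bdnf, chr2:109692371-109692435, plus strand: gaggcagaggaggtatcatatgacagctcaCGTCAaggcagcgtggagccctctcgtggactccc
Scg2, chr1:79440079-79440102, minus strand: tgagccggTGACGTCAgcgtggaa
Homer1, chr13:93303671-93303756, plus strand: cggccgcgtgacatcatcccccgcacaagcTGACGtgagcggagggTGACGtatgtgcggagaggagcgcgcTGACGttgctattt
Pcsk1, chr13:75089749-75089825, plus strand: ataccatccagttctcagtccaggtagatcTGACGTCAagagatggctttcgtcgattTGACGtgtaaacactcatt
The Pcsk1 stretch holds the full element and a further core, the Homer1 stretch holds 3 cores, and the Scg2 stretch holds the full element. A match is a description of the letters in these windows and says nothing of binding.

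The libraries held 13440230 to 22309504 counts over genes. Levels are given as CPM, counts scaled to a common normalised library size. Kcna1 was at 107 to 130 CPM in the 8 wild-type libraries and at 43.4 to 47.2 CPM in 7 of the 8 libraries labelled knockout. The library KC888LL, labelled knockout on the standard diet, had 82.0 CPM of Kcna1, between the genotypes, so values without it are given where it moved a result on the standard-diet knockouts. The Y-linked gene Ddx3y was above 10 CPM in 4 libraries: KC872RL and KC873RR of the standard-diet knockouts, KC890RL of the standard-diet wild types and KC846L of the ketogenic wild types. None of the 4 ketogenic knockouts had it, so sex and group are partly mixed. Markers of hippocampal pyramidal and granule neurons (Neurod6, Slc17a7, Camk2a, Rbfox3 and Snap25) were detected in all 16 libraries. In whole tissue, fewer cells of a type and less RNA per cell cannot be told apart.

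Per kilobase of exon, the wild-type libraries on the standard diet ordered the genes from Scg2 at 71.7 ± 4.32 CPM per kb (SD, n = 4) and Vgf at 66.2 ± 7.13 down to Inhba at 0.886 ± 0.0647. Between them lay Ntrk2 at 36.5, Nptx2 at 17.2, Homer1 at 10.6, Ptgs2 at 6.46, Bdnf at 6.16 and Pcsk1 at 3.09 CPM per kb. Only the neighbours Scg2 and Vgf, and Ptgs2 and Bdnf, overlapped in range between libraries. The peptide cargo genes were thus the most abundant of the 9 and the activin subunit the least. Ntrk2 is also expressed by astrocytes as a truncated receptor, and counts per gene do not separate that form from the full-length kinase, the Homer1 forms from each other, or the several Bdnf promoters.

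Of the 9 genes, 0 passed the test in any comparison (edgeR's quasi-likelihood test, Benjamini-Hochberg adjusted p under 0.05 over all genes), and DESeq2 and limma-voom also called 0 in each. In the standard-diet comparison of knockout with wild type, 0.00572% of all tested genes were called, and 0.0172% in the ketogenic one. The share was 1.16% for ketogenic against standard diet in knockouts, 0.0114% in wild types and 0% for the interaction of genotype and diet. It was 0.0973% for genotype averaged over diets and 0.899% for diet averaged over genotypes. At an unadjusted p under 0.05 edgeR found 1 of the 9 (Scg2) for genotype on the standard diet, 1 (Vgf) for genotype on the ketogenic diet, 1 (Vgf) for diet in knockouts, 0 for diet in wild types and 0 for the interaction. The shares of all tested genes at that p were 14.3%, 9.22%, 16.9%, 5.46% and 7.48% in the same order. DESeq2 found 1, 3, 3, 0 and 1 of the 9 in the same order, and limma-voom found 2, 0, 1, 0 and 0. For genotype averaged over diets the counts were 2 (Scg2 and Ptgs2) by edgeR, 3 by DESeq2 and 2 by limma-voom, and for diet averaged over genotypes 0 by each tool, where edgeR had 15.8% and 14.4% of all tested genes at that p. The shares of all genes at that p were not counted for DESeq2 and limma-voom. Their counts of the 9 thus stand without a background, and the edgeR shares do not supply it. The differences below are therefore values with their errors, and the results turn on how the libraries within a group differed.

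**Figure D1:**
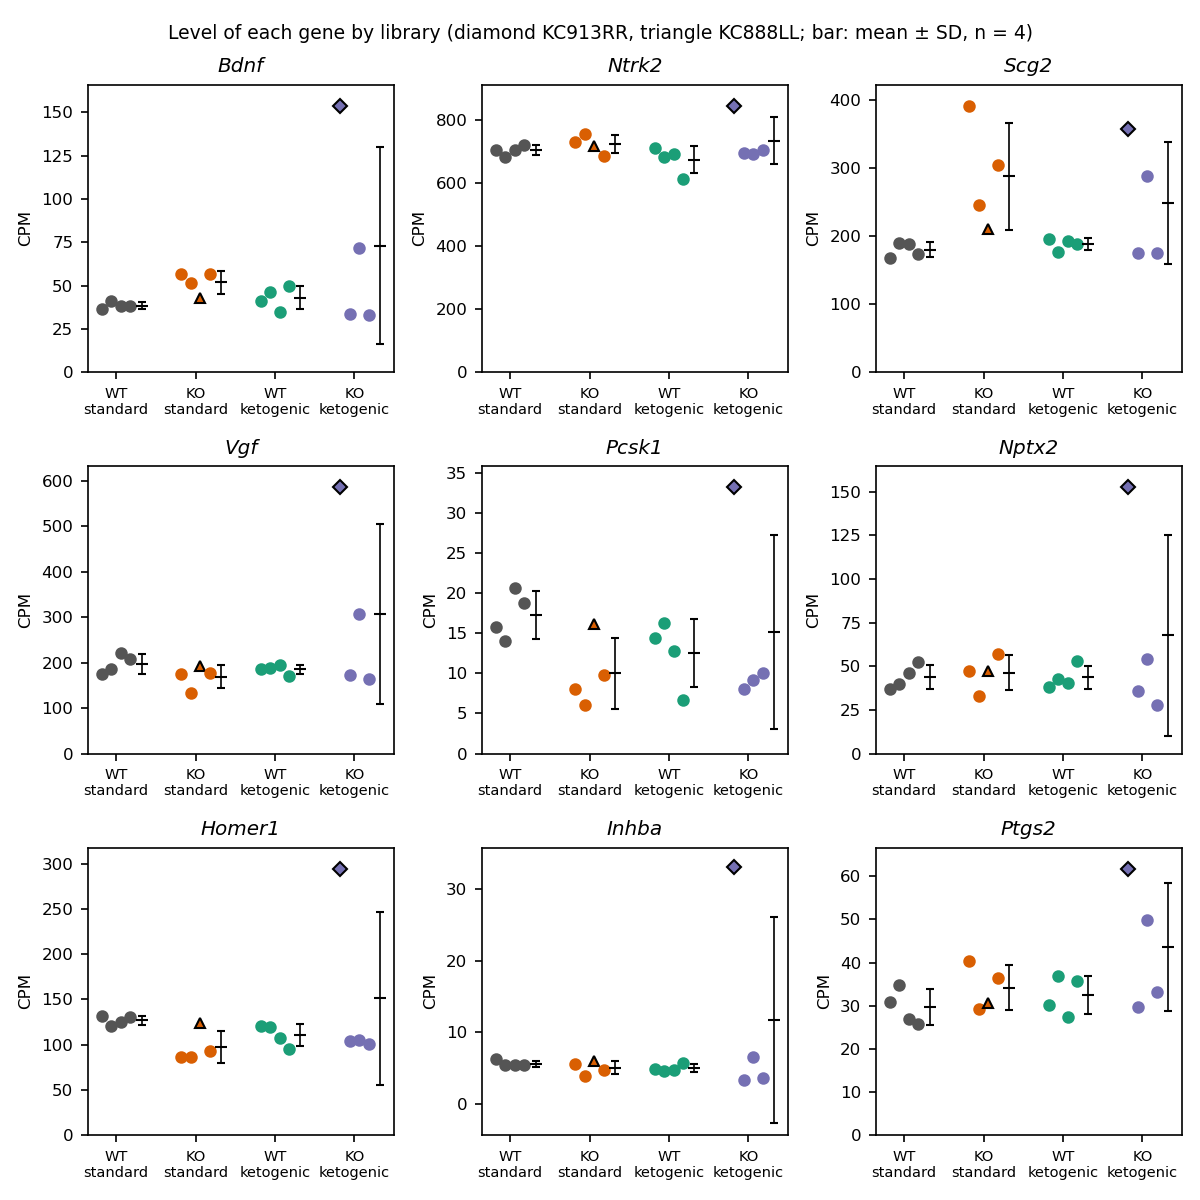
Level of each of the 9 genes in CPM (vertical axis, linear) in each of the 16 libraries, by group; points are libraries, and the bar beside each group is the mean ± SD (n = 4). KC913RR, drawn as a diamond, is the highest library for 8 of the 9 genes, and KC888LL is drawn as a triangle.

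A single ketogenic knockout, KC913RR, was the highest of the 16 libraries for 8 of the 9 genes. Over all tested genes that library was the highest for 16.7%, the largest share of any library. The exception was Scg2, for which KC872RL, a standard-diet knockout, was the highest at 392 CPM and KC913RR came next at 358 CPM. Against the mean of the other 3 ketogenic knockouts, KC913RR had 7.28 times as much Inhba, 3.88 times as much Nptx2, 3.65 times as much Pcsk1 and 3.35 times as much Bdnf. The ratio was 2.85 for Homer1, 2.74 for Vgf, 1.68 for Scg2, 1.64 for Ptgs2 and 1.21 for Ntrk2. Over the 15421 genes with a mean of at least 1 CPM the median of this ratio was 0.994, and 286 genes (1.85%) reached 2 or more. By this ratio the activin subunit gene Inhba was the highest of the 9 and the receptor gene Ntrk2 the lowest.

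For part of the genes the other 3 ketogenic knockouts did not form a single level either. They lay close together for Homer1 (101 to 105 CPM), Ntrk2 (692 to 704 CPM) and Pcsk1 (8.08 to 10.04 CPM). KC934R was the second highest of 16 for Bdnf, Inhba, Vgf and Ptgs2, whereas KC916RRL and KC935LL ranked 13 to 16 of 16 for Bdnf, Inhba and Vgf, and 12 and 8 for Ptgs2. The mean z-score over the 9 genes (each gene's log2 CPM centred and scaled over the 16 libraries) was 2.83 in KC913RR, 0.49 in KC934R, -0.67 in KC916RRL and -0.63 in KC935LL. The 12 libraries of the other groups lay between -0.50 and 0.17. By this score the ketogenic knockouts held both the highest and the lowest library of the series.

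**Figure D2:**
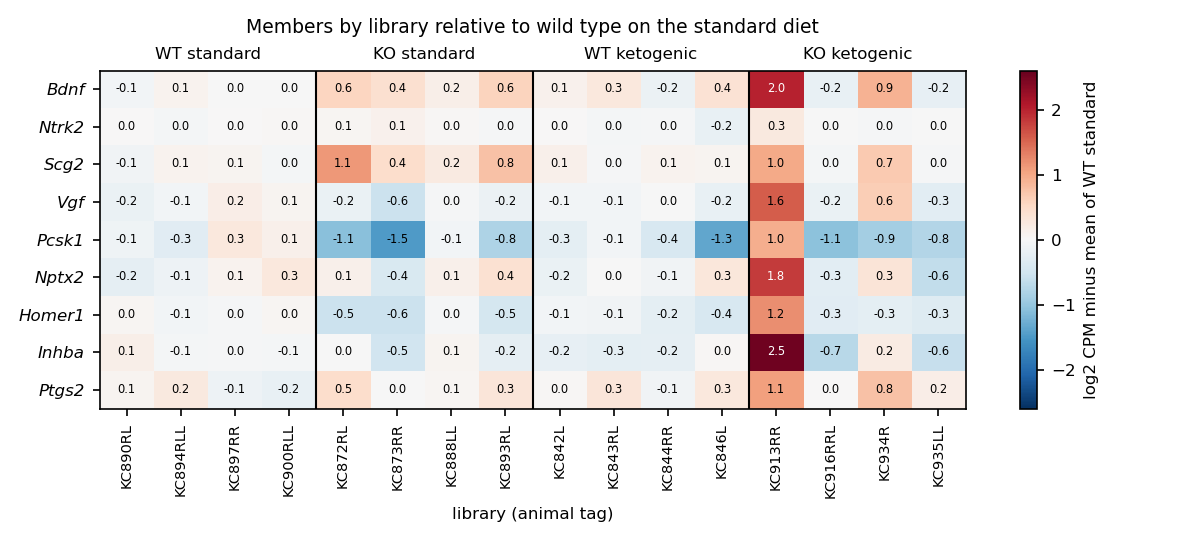
Log2 CPM of each gene (rows) in each library (columns, by group) minus the gene's mean over the 4 wild-type libraries on the standard diet; red is higher and blue lower. KC913RR stands out in red, from 2.5 for Inhba to 0.3 for Ntrk2, and Homer1 and Pcsk1 are blue in the standard-diet knockouts, close to 0 in KC888LL and further from it in the other 3.

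Bdnf (ENSMUSG00000048482, chr2:109674700-109727007, plus strand, GRCm38) was at 36.3, 40.9, 37.9 and 38.0 CPM in the standard-diet wild types KC890RL, KC894RLL, KC897RR and KC900RLL. In the standard-diet knockouts it was at 56.8 in KC872RL, 51.5 in KC873RR, 42.7 in KC888LL and 56.8 CPM in KC893RL, so that every knockout lay above every wild type. The fitted difference was 0.44 ± 0.40 on the log2 scale (SE), with an edgeR adjusted p of 0.665. Bdnf and Scg2 were the 2 of 9 genes whose standard-diet groups did not overlap, and over all tested genes the groups did not overlap for 5.86%, with the knockouts above for 2.97%. In the other 3 comparisons between groups 0 of the 9 stood apart, against 3.98% of all tested genes for genotype on the ketogenic diet, 6.39% for diet in knockouts and 4.88% for diet in wild types. On the ketogenic diet the wild types had 41.2, 46.5, 34.4 and 49.6 CPM. The ketogenic knockouts spanned them on both sides, with 154 CPM in KC913RR, 71.4 in KC934R, 33.5 in KC916RRL and 32.9 in KC935LL. The knockout difference there was 0.76 ± 0.39, adjusted p = 0.575 by edgeR, and 0.11 without KC913RR. Diet gave 0.49 ± 0.39 in knockouts (adjusted p = 0.57, edgeR), which turned to -0.17 without KC913RR, and 0.17 ± 0.40 in wild types. An annotated antisense gene, Gm45346, shares 896 bases of exon with Bdnf on the opposite strand, and it held only 0 to 4 counts in any library. Whether counting used the strand is not given in the sources used here.

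Ntrk2 (ENSMUSG00000055254, chr13:58806569-59133970, plus strand), the BDNF receptor gene, varied least of the 9. Standard-diet wild types had 707, 685, 707 and 721 CPM, and standard-diet knockouts 732, 757, 718 and 687 CPM. Ketogenic wild types had 713, 684, 691 and 612 CPM. Ketogenic knockouts had 846 CPM in KC913RR and 692 to 704 CPM in the other 3. The groups overlapped in every comparison. In the 4 comparisons between groups the fitted differences lay between -0.06 and 0.12 with standard errors of 0.07, the largest being 0.12 ± 0.07 for genotype on the ketogenic diet (edgeR adjusted p = 0.583). Its 95% interval ran from -0.02 to 0.27, so the receptor's level was bounded more tightly than that of any other gene of the set. Without KC913RR this ketogenic genotype difference was 0.05.

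Scg2 (ENSMUSG00000050711, chr1:79434669-79440120, minus strand), the secretogranin II precursor, came closest to the threshold in the genotype comparison on the standard diet. The wild types had 168, 191, 188 and 174 CPM. The knockouts had 392 in KC872RL, 246 in KC873RR, 211 in KC888LL and 304 CPM in KC893RL, all above the wild types. The difference was 0.68 ± 0.22 (1.60-fold, 95% interval 0.19 to 1.16 on the log2 scale), with an adjusted p of 0.221 by edgeR. It was 0.80 (adjusted p = 0.0609) without KC888LL, in a fit that called 5.73% of all tested genes and 0 of the 9, and 0.49 (adjusted p = 0.672) without KC872RL. In ketogenic wild types Scg2 was at 196, 176, 192 and 189 CPM, and in ketogenic knockouts at 358 in KC913RR, 289 in KC934R, 175 in KC916RRL and 176 CPM in KC935LL. These 4 knockouts split into a high and a low pair, and the low pair lay just under the wild types. Averaged over diets the knockout difference was 0.54 ± 0.16 with an adjusted p of 0.145 by edgeR, and 6 of 8 knockouts exceeded every wild type. Without KC888LL the averaged difference was 0.60 and passed (adjusted p = 0.0464, edgeR), in a fit that called 4.96% of all tested genes.

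The 5 libraries highest in Scg2 were also the 5 highest in Bdnf and the 5 highest in Gfap, the astrocyte intermediate filament gene. Gfap was at 2327 CPM in KC872RL, 1340 in KC873RR, 611 in KC893RL, 2018 in KC913RR and 1059 CPM in KC934R, and at 288 to 390 CPM in the remaining 11 libraries. For Aqp4, the astrocyte water channel gene, 4 of these 5 were the highest, at 230 to 387 CPM, but the wild type KC890RL (190 CPM) lay above KC893RL (176 CPM). Over the astrocyte list of 8 genes, the summed level ranged from 4228 to 4695 CPM in standard-diet wild types and from 4326 to 6680 in standard-diet knockouts. It ranged from 4161 to 4518 in ketogenic wild types and from 4221 to 5761 in ketogenic knockouts, with 8 of 8 genes detected in every library. On the standard diet 8 of 8 were higher in knockouts, 2 had an unadjusted p under 0.05 (14.3% of all tested genes) and 0 passed the edgeR test, with a median of 0.28. On the ketogenic diet 4 were higher and 4 lower, 1 had an unadjusted p under 0.05 (9.22% of all tested genes) and 0 passed by edgeR, with a median of 0.05. The part of astrocytes in the Bdnf and Scg2 values was not tested.

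Vgf (ENSMUSG00000037428, chr5:137026392-137033351, plus strand), the other cargo gene, was at 174, 185, 221 and 207 CPM in standard-diet wild types. It was at 174, 133, 191 and 177 CPM in standard-diet knockouts and at 187, 188, 194 and 171 CPM in ketogenic wild types. In ketogenic knockouts it was at 585 CPM in KC913RR, 306 in KC934R, 173 in KC916RRL and 163 in KC935LL. Only KC913RR and KC934R exceeded the range of the other groups. The difference was 0.73 ± 0.32 for genotype on the ketogenic diet (adjusted p = 0.531, edgeR) and 0.86 ± 0.32 for diet in knockouts (adjusted p = 0.204, edgeR). Without KC913RR these were 0.21 and 0.34. For genotype on the standard diet the sign was the opposite of that of Scg2, at -0.22 ± 0.32. With 1 library left out this Vgf difference ranged from -0.29 (without KC888LL) to -0.12 (without KC873RR).

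Pcsk1 (ENSMUSG00000021587, chr13:75089826-75134861, plus strand), the convertase gene, was at 15.8, 14.0, 20.7 and 18.8 CPM in the standard-diet wild types KC890RL, KC894RLL, KC897RR and KC900RLL. It was at 8.0 CPM in KC872RL, 6.06 in KC873RR and 9.77 in KC893RL, all below the wild types, whereas KC888LL had 16.2 CPM, inside their range. The knockout difference was -0.79 ± 0.46 (adjusted p = 0.46, edgeR) and -1.13 without KC888LL (adjusted p = 0.207). Ketogenic wild types had 14.4, 16.4, 12.8 and 6.65 CPM, the lowest being KC846L. Ketogenic knockouts had 33.2 CPM in KC913RR and 8.08, 9.17 and 10.04 CPM in KC916RRL, KC934R and KC935LL, so that 3 of 4 were low and 1 was the highest of the series. The ketogenic genotype difference of 0.27 ± 0.45 became -0.45 without KC913RR.

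Homer1 (ENSMUSG00000007617, chr13:93299635-93405129, plus strand), the postsynaptic scaffold gene, was low in the same 3 standard-diet knockouts. Standard-diet wild types had 131, 121, 125 and 131 CPM. Standard-diet knockouts had 86.6 in KC872RL, 85.8 in KC873RR and 92.7 CPM in KC893RL, below every wild type, and 124 CPM in KC888LL, inside their range. The difference was -0.38 ± 0.30 (adjusted p = 0.606, edgeR) and -0.53 without KC888LL (adjusted p = 0.402). Ketogenic wild types had 121, 119, 107 and 95.4 CPM. Ketogenic knockouts had 294 CPM in KC913RR against 104, 105 and 101 CPM in KC916RRL, KC934R and KC935LL, a tight trio below 3 of the 4 ketogenic wild types. Genotype on the ketogenic diet gave 0.45 ± 0.30, and -0.09 without KC913RR. Diet in knockouts gave 0.63 ± 0.30 (adjusted p = 0.308, edgeR), and 0.09 without KC913RR.

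With both KC888LL and KC913RR left out, a choice made after their values were seen, 3 of the 9 genes passed for genotype on the standard diet. In that fit 9.98% of all 17670 tested genes were called, and the other 6 genes did not pass. Scg2 was higher in knockouts by 0.80 (adjusted p = 0.0194, edgeR), Homer1 lower with -0.52 (adjusted p = 0.000255) and Pcsk1 lower with -1.12 (adjusted p = 0.0176). The same 3 genes passed for genotype averaged over diets, where 6.85% of all genes were called, with 0.49 for Scg2 (adjusted p = 0.044, edgeR), -0.31 for Homer1 (adjusted p = 0.00112) and -0.79 for Pcsk1 (adjusted p = 0.0226). With all 16 libraries the averaged Homer1 difference was 0.03 ± 0.21 by edgeR and -0.06 by limma-voom.

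**Figure D3:**
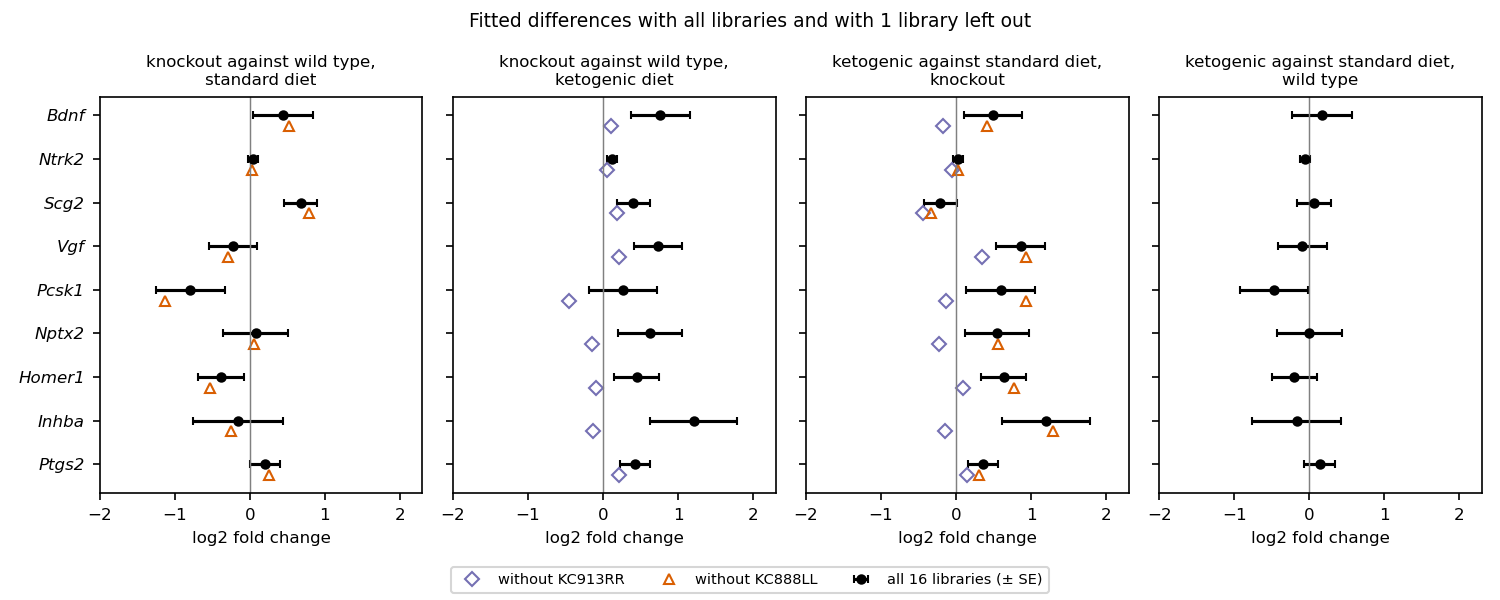
Fitted log2 fold change (horizontal axis) of each gene in the 4 comparisons between groups, with all 16 libraries (black points, ± SE) and with KC913RR (open diamonds) or KC888LL (open triangles) left out. Without KC913RR 4 of the 9 ketogenic genotype differences and 5 of the 9 diet differences in knockouts change sign, whereas without KC888LL the standard-diet differences of Scg2, Homer1 and Pcsk1 become larger.

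Nptx2 (ENSMUSG00000059991, chr5:144545902-144557478, plus strand), the AMPA receptor clustering gene, was at 36.7, 39.7, 45.9 and 52.6 CPM in standard-diet wild types. It was at 47.5, 32.7, 47.4 and 57.3 CPM in standard-diet knockouts and at 38.4, 42.9, 40.5 and 53.0 CPM in ketogenic wild types. Ketogenic knockouts had 153 CPM in KC913RR, 54.4 in KC934R, 36.0 in KC916RRL and 27.7 in KC935LL. Apart from KC913RR the groups overlapped widely. The ketogenic genotype difference was 0.63 ± 0.43 (adjusted p = 0.679, edgeR) and -0.15 without KC913RR, and diet in knockouts gave 0.55 ± 0.43 and -0.23 without it.

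Inhba (ENSMUSG00000041324, chr13:16011851-16031621, plus strand), the activin A subunit gene and the least abundant of the 9, was at 6.28, 5.45, 5.49 and 5.42 CPM in standard-diet wild types. Standard-diet knockouts had 5.58, 3.96, 5.95 and 4.76 CPM, and ketogenic wild types 4.88, 4.70, 4.77 and 5.78 CPM. Ketogenic knockouts had 33.1 CPM in KC913RR, 6.57 in KC934R, 3.37 in KC916RRL and 3.70 in KC935LL. The KC913RR value rested on 495 counts, whose 95% Wilson interval is 29.6 to 35.3 CPM when scaled by the library total, and that of KC916RRL on 45 counts, with 2.50 to 4.48. Such intervals cover counting error only. The fitted ketogenic genotype difference of 1.21 ± 0.58 (adjusted p = 0.552, edgeR) became -0.13 without KC913RR, and the diet difference in knockouts of 1.20 ± 0.58 (adjusted p = 0.317, edgeR) became -0.14. With all 16 libraries limma-voom gave 0.51 for both differences.

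Ptgs2 (ENSMUSG00000032487, chr1:150100031-150108227, plus strand), the COX-2 gene, was at 30.9, 34.9, 26.9 and 25.7 CPM in standard-diet wild types and at 40.4, 29.2, 30.5 and 36.3 CPM in standard-diet knockouts. Ketogenic wild types had 30.2, 36.8, 27.5 and 35.7 CPM. Ketogenic knockouts had 61.7 CPM in KC913RR, 49.8 in KC934R, 29.8 in KC916RRL and 33.2 in KC935LL, a split into the same high pair as for Bdnf, Scg2 and Vgf. Averaged over diets the knockout difference was 0.31 ± 0.14 (adjusted p = 0.298, edgeR), with 3 of 8 knockouts above every wild type. It kept its sign in every alternative run, ranging from 0.21 to 0.38 with a library left out.

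Over the 9 genes together, 5 were higher in knockouts on the standard diet, with a median difference of 0.04, and 9 on the ketogenic diet, with a median of 0.45. For ketogenic against standard diet 8 were higher in knockouts (median 0.55) and 4 in wild types (median -0.06). The corresponding medians over all tested genes were 0.00, 0.00, 0.01 and 0.00. Comparisons that involve the ketogenic knockouts share those 4 libraries, KC913RR among them. Without KC913RR 5 of 9 were higher in ketogenic knockouts than in wild types, with a median of 0.05, and 3 of 9 were higher on the ketogenic diet in knockouts, with a median of -0.13. Without KC888LL the standard-diet genotype values were 5 of 9 higher with a median of 0.04, and those for diet in knockouts 8 of 9 higher with a median of 0.56. For the interaction of genotype and diet 8 of 9 were positive with a median of 0.55. The highest was Inhba at 1.37 ± 0.83 by edgeR (adjusted p = 0.747), and its value by limma-voom was 0.68. Without KC913RR 6 of 9 interactions were positive with a median of 0.01, that of Inhba was 0.02, and for Bdnf it went from 0.32 to -0.33.

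Across the 16 libraries the 36 pairs of genes had Pearson correlations of log2 CPM from -0.07 to 0.92, with a median of 0.64, but the median was 0.28 over the 15 libraries other than KC913RR, when 8 pairs were above 0.5. The libraries share their groups and these values are descriptions. Homer1 and Pcsk1 were the closest pair outside KC913RR: r was 0.87 with it, 0.91 without it and 0.90 after centring on group means. Both genes gave the libraries the same order in the standard-diet knockouts (KC888LL, KC893RL, KC872RL and KC873RR from high to low) and different orders in each of the other 3 groups. Bdnf and Scg2 had r = 0.79 with KC913RR and 0.80 without it. Scg2 and Homer1 had r = 0.13 with KC913RR, -0.66 without it and 0.43 after centring on group means of all 16 libraries. Vgf and Homer1 had r = 0.85 with KC913RR and 0.40 without it.

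**Figure D4:**
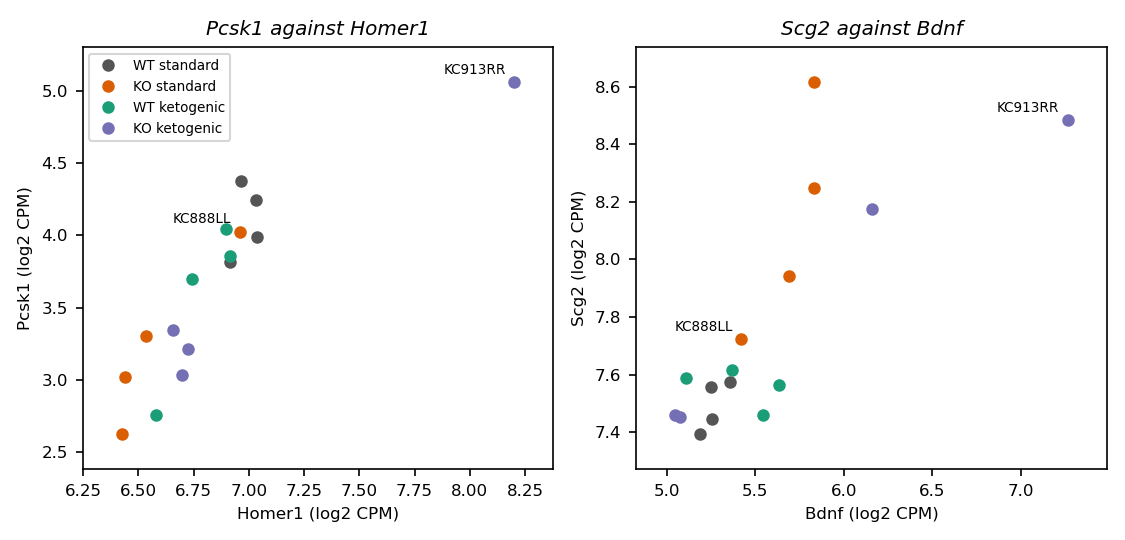
Pcsk1 against Homer1 and Scg2 against Bdnf, in log2 CPM on both axes, with a point for each of the 16 libraries coloured by group. Homer1 and Pcsk1 lie along a line with 3 standard-diet knockouts low and KC888LL among the wild types, and KC913RR is at the high end in Homer1, Pcsk1 and Bdnf.

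The related genes were examined as fixed lists. Of 31 tested genes of BDNF and neurotrophin signalling, 1 passed: Gab1, an adaptor downstream of receptor tyrosine kinases, was lower on the ketogenic diet in knockouts (-0.44 ± 0.08, adjusted p = 0.0142, edgeR), where 1.16% of all tested genes were called. Gab1 was at 33.0, 31.5, 29.7 and 32.03 CPM in standard-diet and at 22.4, 24.3, 21.9 and 24.7 CPM in ketogenic knockouts, with no overlap. It was also lower averaged over genotypes (-0.42 ± 0.05, adjusted p = 0.00163, edgeR), with 24.9 to 26.2 CPM in ketogenic and 28.7 to 36.9 CPM in standard-diet wild types. The median of the list in that knockout diet comparison was 0.07, or 0.02 without KC913RR and 0.09 without KC888LL. Without KC888LL 4 of the 31 passed there, Gab1 at -0.46 (adjusted p = 0.00499, edgeR), in a fit that called 6.18% of all tested genes, and 3 of the 31 passed for genotype on the standard diet, where 5.73% of all were called. Grb2, the adaptor that Gab1 binds, did not pass in any comparison.

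Among 20 genes of dense core vesicle cargo and processing, 8 of pentraxins and AMPA receptor partners, 11 of Homer partners, 13 of activin signalling and 13 of the prostaglandin pathway, 0 passed by edgeR in any of the 7 comparisons with all 16 libraries. Without KC888LL the numbers passing for genotype on the standard diet were 4, 2, 4, 3 and 2 in that order, against 5.73% of all tested genes, and for diet in knockouts 3, 2, 3, 0 and 1, against 6.18%. For genotype on the standard diet the counts at an unadjusted p under 0.05 were 6, 2, 4, 4 and 2 in that order, against 14.3% of all tested genes. For genotype on the ketogenic diet they were 8, 0, 3, 4 and 1, against 9.22%. For genotype averaged over diets they were 10, 2, 7, 5 and 2, against 15.8%, and for diet in knockouts 3, 3, 4, 1 and 4, against 16.9%. Over the 5 comparisons other than the averaged ones, the gene with the smallest p in its list was Cck, the neuropeptide cholecystokinin (-0.50 ± 0.12, genotype on the standard diet, adjusted p = 0.192), and Cacng8, an AMPA receptor auxiliary subunit (-0.35 ± 0.09, the same comparison, adjusted p = 0.192). In the Homer list the gene was Shank3, a postsynaptic scaffold (0.32 ± 0.08, diet in knockouts, adjusted p = 0.0682, edgeR). In the activin list it was Smad7, an inhibitor of the pathway (-0.43 ± 0.12, genotype on the ketogenic diet, adjusted p = 0.378), and in the prostaglandin list Hpgds, a prostaglandin D synthase (-0.70 ± 0.19, diet in knockouts, adjusted p = 0.0845, edgeR). For genotype averaged over diets Cck was at -0.42 ± 0.08 (adjusted p = 0.0689, edgeR) and Smad7 at -0.36 ± 0.08 (adjusted p = 0.0888), both smaller in p than the values above. There Homer2, a Homer family scaffold gene (-0.46 ± 0.11, adjusted p = 0.101, edgeR), and Hpgd, which encodes a prostaglandin-degrading enzyme (1.13 ± 0.28, adjusted p = 0.0992), had smaller p than Shank3 and Hpgds. Without KC888LL, in the comparisons first given, Cck was at -0.68 (adjusted p = 0.000372), Cacng8 at -0.47 (adjusted p = 0.00292), Shank3 at 0.42 (adjusted p = 0.00379) and Hpgds at -0.78 (adjusted p = 0.0302, edgeR). Without it Smad7 passed for genotype on the standard diet (-0.43, adjusted p = 0.0265, edgeR), and for genotype averaged over diets both Smad7 (-0.43, adjusted p = 0.00323) and Cck (-0.52, adjusted p = 0.00012) passed. Smad7 also passed in the averaged comparison without KC913RR (-0.41, adjusted p = 0.0381, edgeR). In the Homer list 10 of 11 were lower in standard-diet knockouts with a median of -0.21, the same sign as Homer1, and in the pentraxin list 8 of 8 were lower with a median of -0.13. Without KC888LL these were 10 of 11 with a median of -0.27 and 7 of 8 with a median of -0.15. In the same comparison the 5 markers of pyramidal and granule neurons named above were lower in 5 of 5 (4 at an unadjusted p under 0.05, 0 passing by edgeR, median -0.24). The lists of single neuron types differed. Dentate granule cell markers were lower in 4 of 7 (median -0.0033), and CA3 and CA1 pyramidal cell markers in 5 of 6 each (medians -0.24 and -0.20). Interneuron markers were higher in 6 of 7 (median 0.14), and 0 genes of these lists passed by edgeR. Microglia markers were higher in 8 of 8 (6 at an unadjusted p under 0.05, 0 passing by edgeR, median 0.51). Their summed level was 544 CPM in KC872RL and in KC873RR. In KC888LL and KC893RL it was 269 and 280 CPM, inside the 256 to 295 CPM of the standard-diet wild types. Without KC888LL 2 of the 5 neuron markers and 5 of the 8 microglia markers passed. The part of these markers in the list values was not tested.

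Both the other delayed activity-induced genes and the rapid immediate early genes were higher in KC913RR than in the other 7 knockouts by their mean level. Over all tested genes 16.7% were highest of 16 libraries in KC913RR. In the delayed list of 18 genes, 13 were highest there, and the list's mean log2 CPM was 5.76 in KC913RR against 4.79 to 5.11 in the other 15 libraries. In the rapid list of 19 genes (Fos, Arc, Egr1, Npas4 and others) 5 were highest in KC913RR, and its mean of 4.64 lay above the 3.39 to 4.20 of the other 7 knockouts and inside the 4.52 to 4.82 of the ketogenic wild types. That list was lower in knockouts, with medians of -0.51 on the standard diet (16 of 19 genes lower, 10 at an unadjusted p under 0.05, 0 passing by edgeR, against 14.3% of all tested genes at that p) and -0.71 on the ketogenic diet (14 of 19 lower, 13 at an unadjusted p under 0.05, 1 passing, against 9.22% at that p). Without KC888LL the standard-diet median was -0.66 and 9 of the 19 passed, against 5.73% of all tested genes. Without KC913RR the ketogenic median was -0.85. Btg2, an antiproliferative gene, was the gene that passed on the ketogenic diet (-0.71 ± 0.12, adjusted p = 0.0458, edgeR), though not without KC913RR (-0.67, adjusted p = 0.067), and it rose with the diet in wild types (0.78 ± 0.12, adjusted p = 0.0415). For diet in knockouts 18 of the 19 rapid genes were higher, with a median of 0.21, or 0.67 without KC888LL and 0.0050 without KC913RR. The exception was Klf4, a transcription factor, which was lower on the ketogenic diet and was the only gene of the list to pass (-0.95 ± 0.18, adjusted p = 0.0184, edgeR). In that comparison 2 of the 19 had an unadjusted p under 0.05, against 16.9% of all tested genes. Averaged over genotypes, diet gave 0.49 ± 0.08 for Btg2 (adjusted p = 0.00932, edgeR) and -0.60 ± 0.13 for Klf4 (adjusted p = 0.0314). Among the delayed genes 0 of 18 passed by edgeR in any comparison with all 16 libraries. Of these, 2 had an unadjusted p under 0.05 for genotype on each diet (14.3% and 9.22% of all tested genes). For genotype averaged over diets 6 of the 18 did, against 15.8% of all tested genes. The smallest p was for Sik1, a kinase that restrains CREB coactivators (-0.59 ± 0.18, genotype on the ketogenic diet, adjusted p = 0.404, and -0.49 ± 0.12 for genotype averaged over diets, adjusted p = 0.101).

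**Figure D5:**
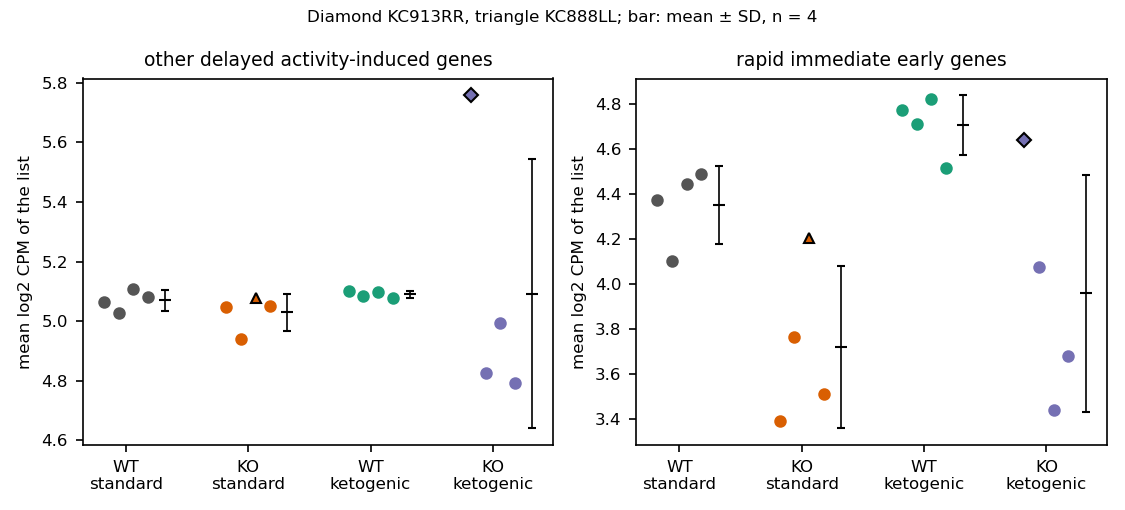
Mean log2 CPM over the other delayed activity-induced genes (18 genes, left) and over the rapid immediate early genes (19 genes, right) in each library, with the mean ± SD of each group (n = 4). KC913RR (diamond) is above all other libraries in the delayed list and, in the rapid list, above the other 7 knockouts and within the range of the ketogenic wild types.

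KC913RR was the highest or lowest of the 16 libraries for 4 lists of markers of other cells or regions, those of oligodendrocytes, interneurons, choroid plexus and thalamus. It was inside the range of the other 15 libraries for astrocyte (7.82 within 7.41 to 8.29), microglia (4.63 within 4.50 to 5.67) and blood markers (1.05 within 0.48 to 3.21), and near the low end for endothelial ones. The oligodendrocyte list (8 of 8 genes detected) had a mean log2 CPM of 6.48 in KC913RR against 7.06 to 8.20 in the other 15 libraries. Its summed level ranged from 1930 to 3624 CPM in ketogenic knockouts, 5032 to 5526 in standard-diet knockouts, 3341 to 4232 in ketogenic and 4045 to 6257 in standard-diet wild types. For diet in knockouts, 8 of 8 oligodendrocyte markers passed and were lower (median -0.92, edgeR), against 1.16% of all tested genes, and 5 of 8 passed without KC913RR (median -0.76), against 0.49%. Of the blood markers 5 of 5 tested were lower in that comparison and 4 passed (median -2.02). Of the microglia markers 8 of 8 were lower, 7 of them at an unadjusted p under 0.05 (16.9% of all tested genes) and 0 passing by edgeR (median -0.70). Without KC888LL 7 of these 8 passed (median -0.85), against 6.18% of all tested genes. The summed microglia level was 544 CPM in both KC872RL and KC873RR, which stood apart. It was 269 CPM in KC888LL, 280 in KC893RL and 240 to 258 CPM in the ketogenic knockouts. The interneuron list of 7 genes was highest in KC913RR (6.21 against 5.69 to 6.07), and the choroid plexus and thalamus lists of 6 genes each were lowest there. The choroid plexus genes Folr1 and Kcnj13 were at 0 in 1 library each. The dentate granule cell list of 7 genes was at 5.48 in KC913RR, inside the range of 5.11 to 5.96. The part of cell composition in the values of the 9 genes, of Gab1 and of the other listed genes was not tested.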

How the data were processed

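RNA-seq of hippocampus was available for 16 mice as a table of whole-number counts per gene that the authors deposited. Per the submitters' processing notes the build was mm10 and DESeq2 was used; the aligner, counter, annotation and strand setting are not given in the sources used here. The test was edgeR's (4.0.16, R 4.3.3), with TMM factors, filterByExpr by group (17469 of 49315 genes kept, 174 with a blank name), a robust quasi-likelihood fit with 1 coefficient per group over all 16 libraries (12 residual degrees of freedom) and Benjamini-Hochberg adjustment over all tested genes, called under 0.05. Log2 CPM used a prior count of 2. Library totals were 13440230 to 22309504. DESeq2 1.42.0, limma-voom (limma 3.58.1), other size factors and filters, Xist as a covariate and leaving out libraries were alternatives. The script was tested on simulated data. Positions and exon lengths are GENCODE M21 (GRCm38, 49056 of 49315 identifiers matched), and promoter sequences RefSeq (GRCm38.p6). All 9 genes are named; of each list, the called genes or otherwise the gene with the smallest p outside the averaged comparisons; and the 5 genes most like Bdnf and the 9 genes' mean. The genes and lists were chosen with earlier results of these data known.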

Additional observations from a re-analysis of the deposited data

Results flagged for a closer look

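In 6 of the 36 combinations of 1 gene and 1 group, a single library stood away from the other 3 by a larger share of the group's whole range than Dixon's 95% limit for 4 values. Chance alone flags about 1 in 20 groups. KC913RR, a ketogenic knockout, was that library in 4 of the 6. It had 845.8 CPM of the receptor gene Ntrk2, against 691.9 to 704.5 in the other ketogenic knockouts. For the activin subunit gene Inhba it had 33.11 CPM against 3.365 to 6.575. It had 294.2 CPM of the scaffold gene Homer1 against 100.9 to 105.5, and 33.25 CPM of the convertase gene Pcsk1 against 8.076 to 10.04. The genes Bdnf, Nptx2, Vgf and Ptgs2, also highest in this library, did not exceed the limit because KC934R lay between it and the low pair. The remaining 2 were small differences in Inhba. KC890RL, a standard-diet wild type, had 6.281 CPM against 5.423 to 5.494, and KC846L, a ketogenic wild type, had 5.784 against 4.696 to 4.875. Both express the Y-linked gene Ddx3y, unlike the other 3 libraries of their groups. In the standard-diet knockouts, KC872RL and KC873RR, which express Ddx3y, had 5.58 and 3.96 CPM of Inhba. There KC888LL and KC893RL, which do not, had 5.95 and 4.76 CPM. Whether Ddx3y or sex bears on Inhba was not tested.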

How the results depend on the processing

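No paired analysis was possible because the table's column names carry no replicate number. The count of the 9 genes passing was 0 in 137 of 140 alternative fits. It became 1 (Scg2) for genotype averaged over diets without KC888LL. With KC888LL and KC913RR both left out, an alternative chosen after seeing the data, it became 3 for genotype on the standard diet and 3 for genotype averaged over diets (Scg2, Homer1 and Pcsk1 in each). Of 1260 alternative fold changes, 1200 kept their direction and side of the threshold, 6 kept their direction and came to pass it, and 54 changed sign, 1 of which also passed (Homer1 averaged over diets without KC888LL and KC913RR). With 1 library left out at a time, the log2 fold changes that changed sign had these ranges. For genotype on the standard diet, Nptx2 -0.033 to 0.21. For genotype on the ketogenic diet, Nptx2 -0.15 to 0.89, Inhba -0.13 to 1.51, Homer1 -0.094 to 0.61 and Pcsk1 -0.45 to 0.47. For diet in knockouts, Ntrk2 -0.054 to 0.051, Bdnf -0.17 to 0.74, Nptx2 -0.23 to 0.81, Inhba -0.14 to 1.5 and Pcsk1 -0.13 to 0.93. For diet in wild types, Nptx2 -0.11 to 0.10. For the interaction, Bdnf -0.33 to 0.57 and Nptx2 -0.23 to 0.81. For genotype averaged over diets, Homer1 -0.24 to 0.11, Nptx2 -0.032 to 0.49, Inhba -0.14 to 0.68 and Vgf -0.0020 to 0.36. For diet averaged over genotypes, Pcsk1 -0.30 to 0.23, Ntrk2 -0.059 to 0.0028, Scg2 -0.19 to 0.020, Bdnf -0.00087 to 0.45, Nptx2 -0.11 to 0.41, Inhba -0.16 to 0.67 and Homer1 -0.057 to 0.29. With KC888LL and KC913RR both left out, the following changed sign. For genotype on the ketogenic diet, Nptx2 -0.15, Inhba -0.13, Homer1 -0.094 and Pcsk1 -0.45. For diet in knockouts, Bdnf -0.25, Ntrk2 -0.058, Nptx2 -0.21 and Inhba -0.058. For the interaction, Bdnf -0.42, Nptx2 -0.22 and Ptgs2 -0.044. For genotype averaged over diets, Nptx2 -0.038, Inhba -0.19, Vgf -0.034 and Homer1 -0.31. For diet averaged over genotypes, Bdnf -0.042, Nptx2 -0.11, Inhba -0.11 and Pcsk1 -0.13. DESeq2 turned Nptx2 for diet in wild types to -0.00089, limma-voom turned Homer1 for genotype averaged over diets to -0.056 and Pcsk1 for diet averaged over genotypes to -0.073, and Xist level as a covariate turned the last to -0.13. The cause of these changes was not tested. Other size factors, either filter on low counts, edgeR without robust estimation and fits on only the groups compared changed no sign or call of the 9 genes, and a prior count of 0.5 moved no correlation. Over all tested genes DESeq2 called 155, 31, 672 and 12 for genotype on the standard and ketogenic diet and for diet in knockouts and wild types, where edgeR called 1, 3, 202 and 2. Without KC888LL edgeR called 1016 for genotype on the standard diet. Of 640 list medians with a library left out, 13 moved by more than 1 SD. The highest library of a group was 4.67, 3.59 and 9.84 times the lowest for Bdnf, Vgf and Inhba in ketogenic knockouts and 1.1 to 1.5 times in the other 3 groups. With 4 animals a group, a p that misses the threshold does not show that groups were alike.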

Other observations

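The genes whose levels over the 16 libraries were most like those of Bdnf, among 11926 other genes with a mean of at least 5 CPM, were Grb2, Tpt1, Eif3c, Zdhhc2 and Ppm1h, each with Pearson r = 0.95 on log2 CPM. Over the 15 libraries other than KC913RR the same 5 had r between 0.84 and 0.91. Grb2 encodes an adaptor of receptor tyrosine kinases, and its level was 243 CPM in KC913RR, 194 in KC934R and 164 to 186 in the other 14 libraries. Most like the mean z-score of the 9 genes were Nedd9, a scaffold of cell adhesion signalling, Chga, the chromogranin A precursor, and Sec24d, a coat protein of transport vesicles, each with r = 0.95, and Hars and Eif3c with r = 0.94. Without KC913RR these had 0.76, 0.76, 0.90, 0.65 and 0.73. Chga was at 281 CPM in KC913RR, 165 in KC934R and 102 to 128 in the other 14 libraries, and Nedd9 at 32.8, 17.7 and 11.9 to 17.0 CPM. These are the top of a ranking and are given without a test.

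Levels of Rgs4, Penk and Npy, picked after their values were seen, are given for single libraries. Rgs4, a regulator of G-protein signalling, was at 531 CPM in KC913RR, 262 in KC934R and 122 in both KC916RRL and KC935LL. Penk, the enkephalin precursor, was at 108, 119, 10.2 and 12.4 CPM in the same order, and Npy, the neuropeptide Y precursor, at 59.9, 100, 20.04 and 18.4 CPM. In the standard-diet knockouts Penk was at 82.3, 49.7 and 88.0 CPM in KC872RL, KC873RR and KC893RL and at 18.7 CPM in KC888LL, against 9.63 to 17.9 CPM in the wild types on that diet.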
